A study of Homo sapiens with 4 samples.

Results

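Transcripts of 10 amino acid transporter genes were followed in SK-LMS-1 cells, a human cell line that the labels describe as uterine leiomyosarcoma, a smooth muscle tumour. The members were taken by gene symbol, from a list drawn up with earlier results of these data known, and all 10 were among the 19381 genes of the count table and among the 12906 genes tested. RNA sequencing was done on 2 libraries from cells treated with 2-D08 at 50 µM for 48 h and on 2 libraries from untreated cells. 2-D08 is an inhibitor of the attachment of the protein modifier SUMO to its substrates. No vehicle is named for the untreated cells. All libraries come from the single cell line, and nothing in the labels says whether the libraries of a group were separate cultures, so every p-value here speaks only of how these libraries vary, and that variation may be technical.

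Amino acid transporters of the plasma membrane set which amino acids enter a cell and which are traded out. SLC3A2, the CD98 heavy chain, is a glycoprotein that pairs through a disulfide bond with a light chain and brings it to the cell surface. Its light chain SLC7A5 (LAT1) exchanges leucine and other large neutral amino acids, and its light chain SLC7A11 (xCT) takes up cystine in exchange for glutamate. SLC7A1 and SLC7A2 carry arginine and lysine, SLC1A4 and SLC1A5 exchange small neutral amino acids and glutamine, SLC38A1 and SLC38A2 load glutamine and alanine with sodium, and SLC1A3 takes up glutamate. Several of these genes are known targets of ATF4, the transcription factor that is translated when amino acids run short.

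The 4 libraries held 14796702 to 31300635 counts. In 2-D08 replicate 2 and untreated replicate 1, 88.8% and 89.0% of the nonzero counts were even numbers, against 47.9% in 2-D08 replicate 1 and 48.4% in untreated replicate 2. Some reads of those libraries may enter the counts repeatedly, which was not tested. Of 10 smooth muscle and uterine markers, DES had 0 counts in every library, and MYOCD, MYH11 and PGR stayed under 1 TPM (a level corrected for sequencing depth and transcript length) in every library. Of the 7 markers tested, CNN1, TAGLN and CALD1 were called lower in 2-D08 cells (-1.03, -0.85 and -0.45 on the log2 scale) and SMTN higher (0.58), where the calls of CNN1 and CALD1 were lost with limma on TPM values and without untreated replicate 2. The summed level of these markers was 313 and 343 TPM in 2-D08 libraries and 376 and 382 TPM in untreated libraries. Of 10 markers of other cell types, 6 stayed under 1 TPM throughout (among them CDH1, PTPRC, PECAM1, CDH5 and VWF), and the list summed to 397 and 373 TPM in 2-D08 libraries and to 380 and 338 TPM in untreated libraries. Most of that sum came from the epithelial keratin KRT18, at 226 and 186 TPM in 2-D08 libraries and 242 and 208 TPM in untreated libraries, and from the macrophage marker CD68, at 148 and 172 TPM in 2-D08 libraries and 111 and 109 TPM in untreated libraries. CD68 was called higher (log2 fold change 0.57 ± 0.10 SE; edgeR BH-adjusted p = 0.000503), KRT18 was not called, and 2 calls that were lost in several alternatives were those of KRT8 (lower, -0.47) and of PECAM1 (higher, 1.89, from 18 and 40 counts in 2-D08 libraries and 14 and 2 in untreated libraries). The part of these marker changes in the results below was not tested.

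Of the 10 transporter genes, SLC1A3 passed the filter on low counts through the 2-D08 libraries alone, so it had to be higher there and is given by its values, with no call. Among the other 9, 1 was called higher in 2-D08 cells (SLC3A2), 4 were called lower (SLC38A2, SLC7A11, SLC1A4 and SLC7A5) and 4 were not called. The calls came from edgeR's quasi-likelihood test with Benjamini-Hochberg (BH) adjustment over all tested genes at 0.05. Across all tested genes 33.9% were called, 17.1% higher and 16.9% lower. The log2 fold changes of these 9 lay between -0.94 and 0.42 with a median of -0.24, beside a median of 0.00 over all tested genes. The 4 genes called lower kept that call in every one of the 16 alternative settings tried.

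**Figure D1:**
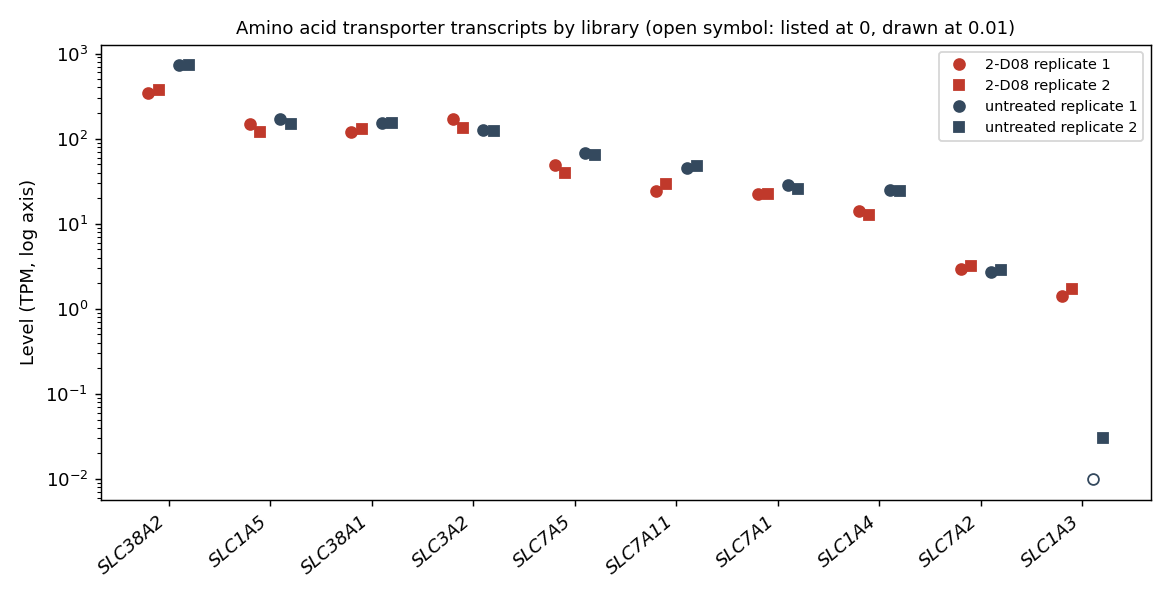
Level of each transporter transcript in TPM on a log axis, in 2-D08 libraries (red) and untreated libraries (dark), with circles for replicate 1 and squares for replicate 2. SLC38A2 stands highest in every library, at 343 and 373 TPM with 2-D08 and at 728 TPM in both untreated libraries, and SLC1A3 lowest.

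On the TPM scale, which allows levels of different genes to be compared, SLC38A2 was the most abundant of the 10 transcripts in each group. SLC1A5, SLC38A1 and SLC3A2 formed a close middle group. In 2-D08 cells their means were 134 ± 21.4 TPM for SLC1A5, 125 ± 8.12 TPM for SLC38A1 and 152 ± 26.1 TPM for SLC3A2 (SD, n = 2), and neighbours in this order did not differ beyond their spread. In untreated cells the means were 160 ± 13.6 TPM for SLC1A5, 153 ± 1.83 TPM for SLC38A1 and 124 ± 2.63 TPM for SLC3A2 (SD, n = 2), with SLC3A2 under both others. SLC3A2 thus had rank 2 among the 10 levels with 2-D08 and rank 4 without it. SLC7A5, SLC7A11, SLC7A1 and SLC1A4 followed in that order in both groups, at mean levels of 44.0, 26.6, 22.4 and 13.5 TPM in 2-D08 cells and of 65.7, 46.6, 26.8 and 24.5 TPM in untreated cells. In untreated cells SLC7A1, at 28.3 and 25.3 TPM, lay just above SLC1A4, at 24.8 and 24.2 TPM. SLC7A2 and SLC1A3 were lowest.

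SLC38A2 (SNAT2), the sodium-coupled transporter of small neutral amino acids, is encoded on chromosome 12 (46358189 to 46372867, minus strand, GRCh38). It had 973 and 1079 CPM (counts relative to the TMM-adjusted library total) in 2-D08 libraries and 1920 and 2017 CPM in untreated libraries. The groups lay far apart compared with the gap inside either pair. In RNA from whole cultures, fewer cells that express a gene and less of its RNA per cell cannot be told apart. The level in 2-D08 cells was 52.1% of that in untreated cells, a log2 fold change of -0.94 ± 0.09 (SE; edgeR BH-adjusted p = 4.83e-06). SLC38A2 alone made up 38.3% and 43.1% of the summed TPM of the 10 genes in 2-D08 libraries and 54.0% and 55.3% in untreated libraries.

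Its paralog SLC38A1 (SNAT1), a glutamine transporter, lies beside it on chromosome 12 (46183063 to 46270017, minus strand). SLC38A1 had 569 and 655 CPM in 2-D08 libraries and 687 and 705 CPM in untreated libraries. The groups did not overlap, but the gap between them was smaller than the gap between the 2-D08 libraries. The log2 fold change was -0.19 ± 0.09 (SE), with a 95% interval of -0.39 to 0.02, and SLC38A1 was not called (edgeR BH-adjusted p = 0.141). It was called lower without 2-D08 replicate 2 (log2 fold change -0.30, edgeR BH-adjusted p = 0.00117). The TPM ratio of SLC38A2 to SLC38A1 was 2.87 and 2.84 in 2-D08 libraries and 4.71 and 4.79 in untreated libraries. That is a difference far beyond the spread within pairs, although an exact two-sided permutation test of 2 against 2 libraries cannot give a p below 0.333, which it gave here.

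SLC7A11, the cystine-glutamate exchanger subunit (chromosome 4, 138164097 to 138242349, minus strand), had 177 and 220 CPM in 2-D08 libraries and 319 and 348 CPM in untreated libraries. The groups were separate, and the 2-D08 libraries differed more from each other than the untreated ones did. SLC7A11 fell to 59.7% of its untreated level, a log2 fold change of -0.75 ± 0.11 (SE; edgeR BH-adjusted p = 0.000177). An RNA on the opposite strand overlaps the gene in the annotation, and whether counting used the strand is not given in the sources used here.

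SLC7A5, the light chain that carries leucine (chromosome 16, 87830023 to 87869488, minus strand), had 153 and 128 CPM in 2-D08 libraries and 207 and 196 CPM in untreated libraries. Every 2-D08 library lay under every untreated one. SLC7A5 fell to 69.4% of its untreated level, a log2 fold change of -0.53 ± 0.10 (SE; edgeR BH-adjusted p = 0.0014). The annotation holds the pseudogene copies SLC7A5P1 and SLC7A5P2, neither of which has a row in the count table, so how reads shared with them were counted is uncertain.

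SLC3A2, the heavy chain that both light chains pair with (chromosome 11, 62856102 to 62888875, plus strand), moved the other way. It had 166 and 120 CPM in 2-D08 libraries and 105 and 108 CPM in untreated libraries. The groups did not overlap, but 2-D08 replicate 2 stood much closer to the untreated libraries than to 2-D08 replicate 1. The log2 fold change was 0.42 ± 0.13 (SE; edgeR BH-adjusted p = 0.0195). This call was lost without 2-D08 replicate 1 (log2 fold change 0.17, adjusted p = 0.0977), without untreated replicate 1 (adjusted p = 0.105) or without the other untreated library (adjusted p = 0.0544), and with limma on log2(TPM + 1) (log2 fold change 0.27, adjusted p = 0.214) and on log2(TPM + 0.1) (adjusted p = 0.209).

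The ratios of SLC7A5 and of SLC7A11 to SLC3A2 transcripts were lower in both 2-D08 libraries than in either untreated one. SLC7A5 stood at 0.288 and 0.293 TPM per TPM of SLC3A2 in 2-D08 libraries and at 0.538 and 0.519 in untreated libraries. SLC7A11 stood at 0.142 and 0.218 TPM per TPM of SLC3A2 in 2-D08 libraries and at 0.362 and 0.389 in untreated libraries. The SLC7A5 ratio was nearly equal in the 2 treated libraries although SLC3A2 itself differed between them, whereas the SLC7A11 ratio was uneven. Together these 2 light chains came to 0.471 ± 0.058 of the heavy chain in 2-D08 cells and to 0.904 ± 0.005 in untreated cells (SD, n = 2 each; exact two-sided permutation p = 0.333, the smallest this design allows). SLC7A6, another light chain partner of SLC3A2, did not share this: it stood at 0.102 and 0.131 TPM per TPM of SLC3A2 in 2-D08 libraries and at 0.107 and 0.0792 in untreated libraries, so the groups overlapped. With SLC7A6 and the light chains SLC7A7, SLC7A8 and SLC7A10 added, the sum came to 0.541 and 0.659 of the heavy chain in 2-D08 libraries and to 1.02 and 0.995 in untreated libraries.

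**Figure D2:**
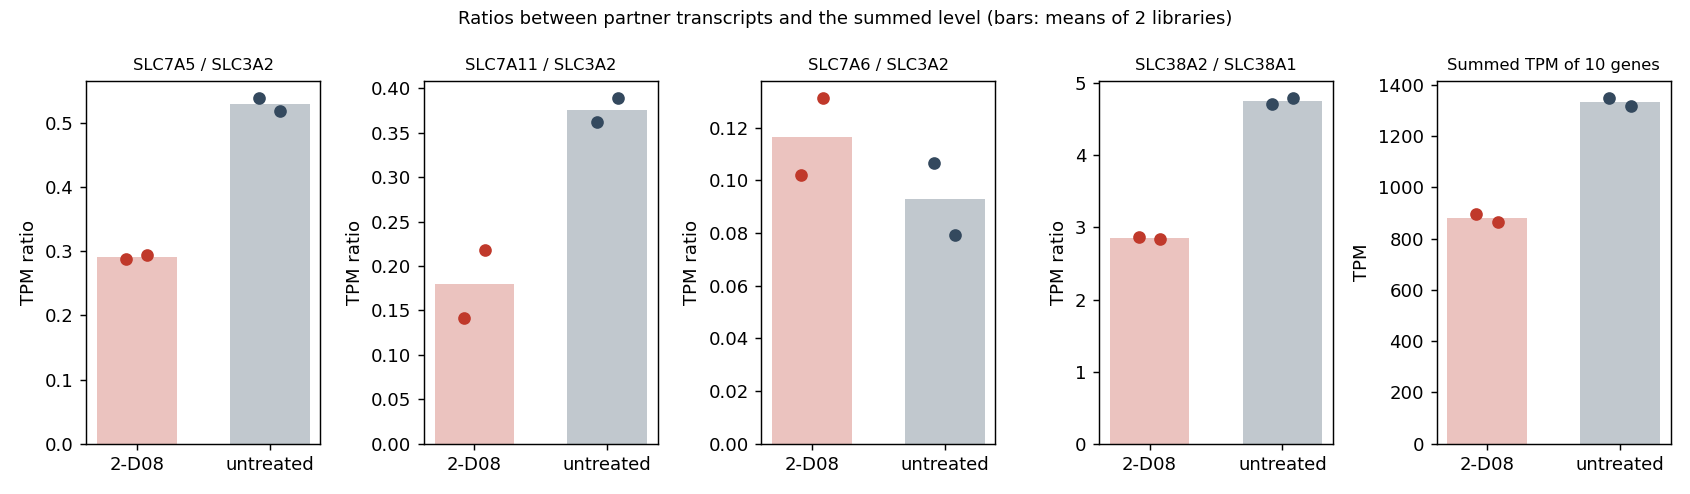
TPM ratios of SLC7A5, SLC7A11 and SLC7A6 to SLC3A2 and of SLC38A2 to SLC38A1, and the summed TPM of the 10 genes; points are libraries and bars are means of 2 libraries. The SLC7A6 ratio overlaps between groups, and the other 4 quantities are lower in both 2-D08 libraries than in either untreated library.

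SLC1A4 (ASCT1), an exchanger of alanine, serine, cysteine and threonine (chromosome 2, 64988477 to 65023865, plus strand), had 48.1 and 44.7 CPM in 2-D08 libraries and 77.9 and 76.0 CPM in untreated libraries. Both pairs were tight and the groups stood well apart. SLC1A4 fell to 60.1% of its untreated level, a log2 fold change of -0.73 ± 0.10 (SE; edgeR BH-adjusted p = 0.000101).

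Its paralog SLC1A5 (ASCT2), the glutamine exchanger (chromosome 19, 46774883 to 46788594, minus strand), had 260 and 206 CPM in 2-D08 libraries and 289 and 260 CPM in untreated libraries. One 2-D08 library lay practically level with the lower untreated library. SLC1A5 was not called, with a log2 fold change of -0.24 ± 0.11 (SE), a 95% interval of -0.48 to -0.003 and an edgeR BH-adjusted p of 0.109. It was called lower without 2-D08 replicate 1 (log2 fold change -0.42, edgeR BH-adjusted p = 1.56e-06). The TPM ratio of SLC1A5 to SLC1A4 was 10.5 and 9.28 in 2-D08 libraries and 6.84 and 6.23 in untreated libraries, with no overlap (exact two-sided permutation p = 0.333, the smallest possible).

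SLC1A3 (EAAT1, also called GLAST), a glutamate transporter best known from astrocytes (chromosome 5, 36606355 to 36688334, plus strand), was close to absent. It had 17 and 22 counts in 2-D08 libraries and 0 and 2 counts in untreated libraries. Pooled over libraries and scaled to library size, the ratio was 19.6, with a 95% exact interval of 5.08 to 168 that covers counting error only. SLC1A3 passed the low-count filter through the 2-D08 libraries alone, so this interval is no test of a rise. Its level in 2-D08 cells was 0.921 ± 0.294 CPM (SD, n = 2), and reads counted repeatedly in 2-D08 replicate 2 would widen the interval.

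The arginine and lysine transporters showed smaller differences. SLC7A1 (CAT1; chromosome 13, 29509410 to 29595688, minus strand) had 124 and 129 CPM in 2-D08 libraries and 152 and 140 CPM in untreated libraries. These did not overlap, yet the log2 fold change of -0.20 ± 0.09 (SE; 95% interval -0.40 to -0.01) did not pass after adjustment (edgeR BH-adjusted p = 0.0995). It was called lower without 2-D08 replicate 2 (log2 fold change -0.24, edgeR BH-adjusted p = 0.0182). SLC7A2 (CAT2; chromosome 8, 17497088 to 17570573, plus strand) had 16.7 and 19.1 CPM in 2-D08 libraries and 15.2 and 16.1 CPM in untreated libraries. Its log2 fold change of 0.21 ± 0.15 (SE; 95% interval -0.11 to 0.52) was not called (edgeR BH-adjusted p = 0.296). SLC7A1 was the more abundant of the pair, by 7.68 and 6.96 times in TPM in 2-D08 libraries and by 10.3 and 8.95 times in untreated libraries.

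**Figure D3:**
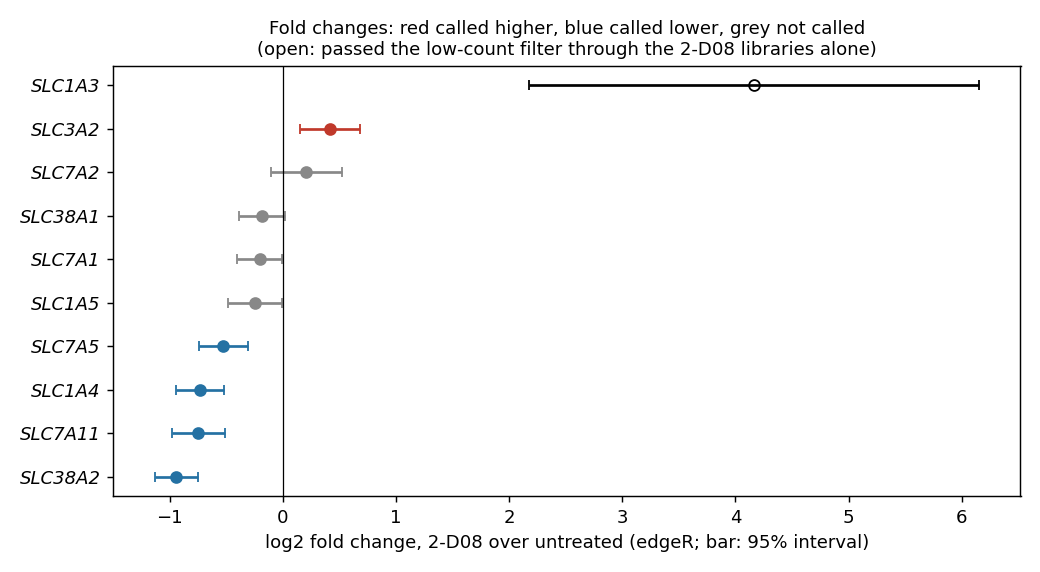
Log2 fold change of each transporter gene, 2-D08 over untreated, from edgeR with 95% intervals, coloured by call; SLC1A3, which passed the low-count filter through the 2-D08 libraries alone, is drawn open. The unadjusted intervals of SLC38A2, SLC7A11, SLC1A4 and SLC7A5 lie left of 0, as do those of SLC7A1 and SLC1A5, which were not called. That of SLC3A2 lies right of 0 between 0.15 and 0.69, and that of SLC1A3 is widest.

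Summed over the 10 genes, transporter transcripts came to 896 and 864 TPM in 2-D08 libraries and to 1348 and 1317 TPM in untreated libraries. Without SLC38A2 the sums were 553 and 491 TPM in 2-D08 libraries and 620 and 589 TPM in untreated libraries. SLC38A2 gave the greater part of the difference between the sums. The share of SLC3A2 in the sum was 18.98% and 15.4% in 2-D08 libraries and 9.36% and 9.30% in untreated libraries. Its mean share with 2-D08 was 1.84 times the untreated one. For SLC1A5, SLC38A1, SLC7A1 and SLC7A2, which were not called, that ratio was 1.26, 1.24, 1.27 and 1.67. Shares of SLC38A2, SLC7A11 and SLC1A4 were lower with 2-D08. A share depends on the levels of all 10 genes, so a higher share is not particular to SLC3A2.

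Factors known to act on transporter genes did not move one way: of 11 tested, 3 were called higher, 3 lower and 5 were not called. Across all tested genes the shares were 17.1% higher and 16.9% lower. ATF4, the activator of amino acid response genes, had 209 and 199 CPM in 2-D08 libraries and 321 and 321 CPM in untreated libraries. Its transcript fell (log2 fold change -0.65 ± 0.09 SE; edgeR BH-adjusted p = 9.67e-05), which does not give the level of the ATF4 protein, since that is set largely in translation. ATF3, a stress-induced repressor and activator of the same family, had 23.9 and 20.3 CPM in 2-D08 libraries and 10.2 and 10.4 CPM in untreated libraries, and rose (log2 fold change 1.09 ± 0.15 SE; edgeR BH-adjusted p = 0.000137). ATF5 (0.53 on the log2 scale, edgeR BH-adjusted p = 0.00369) and DDIT3, which encodes CHOP (0.45, edgeR BH-adjusted p = 0.0136), were also called higher; both calls were lost with limma on TPM values and without untreated replicate 1, and that of DDIT3 also without untreated replicate 2. BACH1, a repressor at antioxidant response elements, fell by 0.40 on the log2 scale (edgeR BH-adjusted p = 0.00526), a call lost with limma on TPM values and without either untreated library.

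The activator of antioxidant genes NFE2L2 (NRF2) had 187 and 214 CPM in 2-D08 libraries and 194 and 211 CPM in untreated libraries, so the groups overlapped. Its log2 fold change was -0.01 ± 0.10 (SE). MYC, known to drive SLC7A5 and SLC1A5, was not called (-0.21 on the log2 scale, edgeR BH-adjusted p = 0.0829), though it was called lower without 2-D08 replicate 1 (-0.27). CEBPB (0.21), CEBPG (-0.01) and BAP1 (0.01), a repressor of SLC7A11, were not called either, and the signs of these log2 fold changes and that of NFE2L2 differed between settings. CEBPB was called higher without 2-D08 replicate 2 (0.43 on the log2 scale, edgeR BH-adjusted p = 0.00203).

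**Figure D4:**
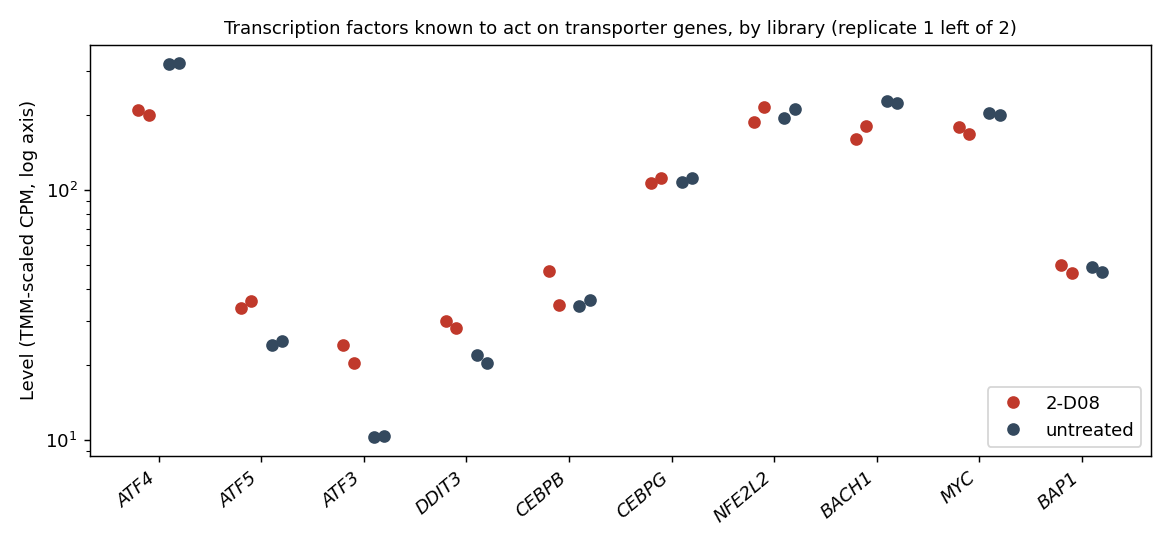
TMM-scaled CPM on a log axis of 10 factors known to act on transporter genes, in 2-D08 libraries (red) and untreated libraries (dark), replicate 1 left of replicate 2. ATF4 and BACH1 lie lower with 2-D08, ATF5, ATF3 and DDIT3 lie higher, and NFE2L2 overlaps.

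Promoter windows of 8 members, 16 windows in all, were searched on both strands for elements that these factors are known to bind (RefSeq, GRCh38.p14; 250 bases before to 50 after each start). SLC7A11 and SLC7A2 were not searched. The C/EBP-ATF response element was written as TGATGNAA, the antioxidant response element as TGACNNNGC and the E-box as CACGTG. The first was found in 6 of the 16 windows, of SLC3A2, SLC7A1, SLC1A3, SLC1A4, SLC1A5 and SLC38A1, and in 3.62% of all 35116 windows. The matching SLC1A3 window (chromosome 5, 36596338 to 36596637) lies before the annotated gene. The matching windows of SLC1A5 (chromosome 19, 46784765 to 46785064), SLC3A2, SLC38A1 and SLC1A4 lie wholly inside the annotated genes. That of SLC3A2 (chromosome 11, 62881449 to 62881748) lies far from the annotated gene start at 62856102. The SLC1A5 window with the E-box also lies inside its gene. The ends of the matching SLC1A3 and SLC38A1 windows were found in no GENCODE transcript of these genes. The antioxidant element was found in 5 of 16 windows, against 13.3% of all, and the E-box in 2 of 16, those of SLC7A5 and SLC1A5, against 7.26% of all. Genes holding the C/EBP-ATF element included one that fell (SLC1A4), SLC3A2, which was called higher, SLC1A3, and 3 that were not called. A match is only a description of these letters. The sequences from 150 bases before to 10 after the start are shown for the searched transporters called lower and for SLC3A2, with matches in capitals. SLC1A4 had 2 windows and SLC3A2 had 3, and for each the window with the most matches was picked for display. The other windows of these genes held no match, and the start meant is that of the window shown.
SLC38A2, chr12:46372764-46372923, minus strand: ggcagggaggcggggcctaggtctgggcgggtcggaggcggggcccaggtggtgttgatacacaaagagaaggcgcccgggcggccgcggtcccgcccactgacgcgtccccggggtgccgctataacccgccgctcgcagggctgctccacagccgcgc
SLC7A5, chr16:87869498-87869657, minus strand: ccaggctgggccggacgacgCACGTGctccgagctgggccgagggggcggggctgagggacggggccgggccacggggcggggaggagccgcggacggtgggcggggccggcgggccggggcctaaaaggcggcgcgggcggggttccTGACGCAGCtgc
SLC1A4, chr2:64989249-64989408, plus strand: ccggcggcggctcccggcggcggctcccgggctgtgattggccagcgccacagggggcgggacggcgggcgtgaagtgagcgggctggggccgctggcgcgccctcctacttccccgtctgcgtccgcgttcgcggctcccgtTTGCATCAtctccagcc
SLC3A2, chr11:62881549-62881708, plus strand: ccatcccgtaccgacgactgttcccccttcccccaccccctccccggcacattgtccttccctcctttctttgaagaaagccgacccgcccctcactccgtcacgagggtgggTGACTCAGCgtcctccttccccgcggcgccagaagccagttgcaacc
SLC3A2 downstream of the start, chr11:62881726-62881748, plus strand: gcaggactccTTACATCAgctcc

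In the SLC1A4 stretch the capitals mark TTGCATCA, the C/EBP-ATF element read on the other strand, which begins 7 bases before the start. In SLC3A2 they mark the antioxidant element TGACTCAGC, which begins 37 bases before the start, and TTACATCA, a C/EBP-ATF element on the other strand that begins 37 bases after it. In SLC7A5 they mark an E-box 130 bases before the start and the antioxidant element TGACGCAGC at the start itself. The window of SLC38A2, the gene with the lowest log2 fold change among the members, held none of the 3 motifs. Sequence outside the window, such as the introns, was not searched.

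Other amino acid transporters of the plasma membrane were mostly not called. Of 32 listed, 15 were expressed enough to be tested. Of these, SLC1A2 and SLC3A1 passed the filter on low counts through the 2-D08 libraries alone, and among the other 13, 1 was called higher and 1 lower. The shares over all tested genes were 17.1% higher and 16.9% lower. SLC6A9, the glycine transporter GlyT1, had 12.4 and 11.4 CPM in 2-D08 libraries and 35.5 and 29.2 CPM in untreated libraries, and fell by 1.46 ± 0.14 on the log2 scale (SE; edgeR BH-adjusted p = 6.49e-06). SLC7A6, the light chain described above, had 51.3 and 60.9 CPM in 2-D08 libraries and 44.4 and 34.5 CPM in untreated libraries (log2 fold change 0.51 ± 0.13 SE; edgeR BH-adjusted p = 0.0091), a call lost with limma on TPM values and without untreated replicate 2 (adjusted p = 0.182). SLC3A1, the heavy chain of a different light chain family, had 12 and 21 counts in 2-D08 libraries and 4 and 1 in untreated libraries, and SLC1A2, a glutamate transporter, had 7 and 20 counts in 2-D08 libraries and 6 and 3 in untreated libraries; both are named after their values were seen. SLC6A6, the taurine transporter, was not called (0.28 on the log2 scale, edgeR BH-adjusted p = 0.0587) and was called without 2-D08 replicate 1 (edgeR BH-adjusted p = 0.0257).

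Transporters inside the cell gave few calls. Of 13 tested lysosomal and vesicular transporters, 1 of which (SLC7A14, not called) passed the filter through the untreated libraries alone, only SLC66A1, the lysosomal exporter of cationic amino acids, was called (0.59 on the log2 scale, edgeR BH-adjusted p = 0.0284). That call was lost in 6 of the 16 alternatives, among them the fits without 2-D08 replicate 1 and without either untreated library (adjusted p of 0.133, 0.136 and 0.0892 with edgeR). SLC17A5 (-0.15) and SLC17A9 (0.41), transporters of sialic acid and of nucleotides, were not called, and SLC17A9 was called higher without 2-D08 replicate 2 (0.61 on the log2 scale). Of 13 tested mitochondrial carriers 2 were called higher and 1 lower, beside 17.1% and 16.9% over all tested genes. SFXN1, the mitochondrial serine carrier, had 120 and 110 CPM in 2-D08 libraries and 75.3 and 73.9 CPM in untreated libraries (log2 fold change 0.62 ± 0.09 SE; edgeR BH-adjusted p = 0.00023). The glutamate carrier SLC25A22 was also called higher (0.58), a call lost with limma on TPM values and without untreated replicate 2 (edgeR BH-adjusted p = 0.112). SFXN3 was called lower (-0.89).

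Enzymes that use the transported amino acids moved in both directions. Over all tested genes 17.1% were called higher and 16.9% lower. Branched-chain amino acid catabolism, which breaks down the leucine, isoleucine and valine that SLC7A5 carries, had 0 genes called higher and 8 lower of 10 tested, with a median log2 fold change of -0.38. BCAT1, the cytosolic transaminase that starts it, had 118 and 141 CPM in 2-D08 libraries and 214 and 226 CPM in untreated libraries (log2 fold change -0.76 ± 0.10 SE; edgeR BH-adjusted p = 9.22e-05). BCKDHA (-0.92), a subunit of the dehydrogenase of the next step, and HIBCH (-0.70), of valine breakdown, were lower too, the last a call lost with limma on TPM values. The 8 genes called lower also include BCKDK (-0.41), named after its value was seen. It encodes a kinase that inhibits that dehydrogenase and does not itself break down amino acids. Of 11 tested genes of glutamine and glutamate use, 3 were called higher and 2 lower. PPAT, which starts purine synthesis with the amide of glutamine, had 55.5 and 64.2 CPM in 2-D08 libraries and 33.2 and 39.5 CPM in untreated libraries (log2 fold change 0.73 ± 0.12 SE; edgeR BH-adjusted p = 0.000446), a call lost with limma on TPM values. GPT2, the mitochondrial alanine transaminase, was lower (-0.79).

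Of 11 tested genes of arginine and polyamine metabolism 2 were called higher and 3 lower, beside 17.1% and 16.9% over all tested genes. ASS1 and ASL, the enzymes that rebuild arginine from citrulline, fell: ASS1 had 4.78 and 3.63 CPM in 2-D08 libraries and 12.2 and 11.3 CPM in untreated libraries (log2 fold change -1.51 ± 0.20 SE; edgeR BH-adjusted p = 8.96e-05), and ASL changed by -0.73 on the log2 scale. ODC1, the enzyme that starts polyamine synthesis, had 947 and 940.1 CPM in 2-D08 libraries and 587 and 566 CPM in untreated libraries (log2 fold change 0.71 ± 0.09 SE; edgeR BH-adjusted p = 4.05e-05).

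Of 14 tested genes of cystine and glutathione metabolism 3 were called higher and 3 lower, beside 17.1% and 16.9% over all tested genes. GCLM, the modifier subunit of the enzyme that joins cysteine to glutamate, had 123 and 136 CPM in 2-D08 libraries and 60.1 and 58.7 CPM in untreated libraries (log2 fold change 1.12 ± 0.10 SE; edgeR BH-adjusted p = 1.69e-06). GPX4, the glutathione peroxidase that reduces lipid peroxides, fell by 0.54 on the log2 scale (edgeR BH-adjusted p = 0.000495). CTH, which makes cysteine from cystathionine, fell by 0.94 (edgeR BH-adjusted p = 0.000308).

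Genes that sense amino acids for the kinase mTORC1 had a share of calls below the 33.9% over all tested genes. Their share called lower was only a little above the 16.9% over all tested genes, a difference that was not tested. These genes gave 0 higher and 6 lower of 28 tested, with a median log2 fold change of -0.12. The 6 called lower included RRAGA (-0.35), LAMTOR4 (-0.49) and WDR59 (-0.40). These were named after their values were seen, and their calls were not followed over the alternatives. The leucine sensor relative SESN3 (-0.96, edgeR BH-adjusted p = 0.000124), NPRL3 (-0.51, edgeR BH-adjusted p = 0.0124), a subunit of the inhibitory GATOR1 complex, and the S-adenosylmethionine sensor BMT2 (SAMTOR) (-0.44, edgeR BH-adjusted p = 0.0126) were among them. The last 2 lost their calls with limma on TPM values, NPRL3 also without 2-D08 replicate 2 or untreated replicate 1 (adjusted p of 0.0544 and 0.0833 with edgeR), and BMT2 also without untreated replicate 2 (edgeR BH-adjusted p = 0.241). Of 9 tested ubiquitin ligases and adaptors that act in transporter turnover 1 was called higher and 2 lower, beside 17.1% and 16.9% over all tested genes. The arrestin ARRDC4 had 28.97 and 29.6 CPM in 2-D08 libraries and 12.3 and 13.8 CPM in untreated libraries (log2 fold change 1.17 ± 0.14 SE; edgeR BH-adjusted p = 2.82e-05), and the ligase MARCHF8, known to target SLC3A2 among other surface proteins, fell by 0.70 (edgeR BH-adjusted p = 0.000232). MARCHF1 was lower (-0.87) at 3.12 to 8.23 CPM, a call lost with limma on TPM values and without untreated replicate 2 (edgeR BH-adjusted p = 0.29).

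**Figure D5:**
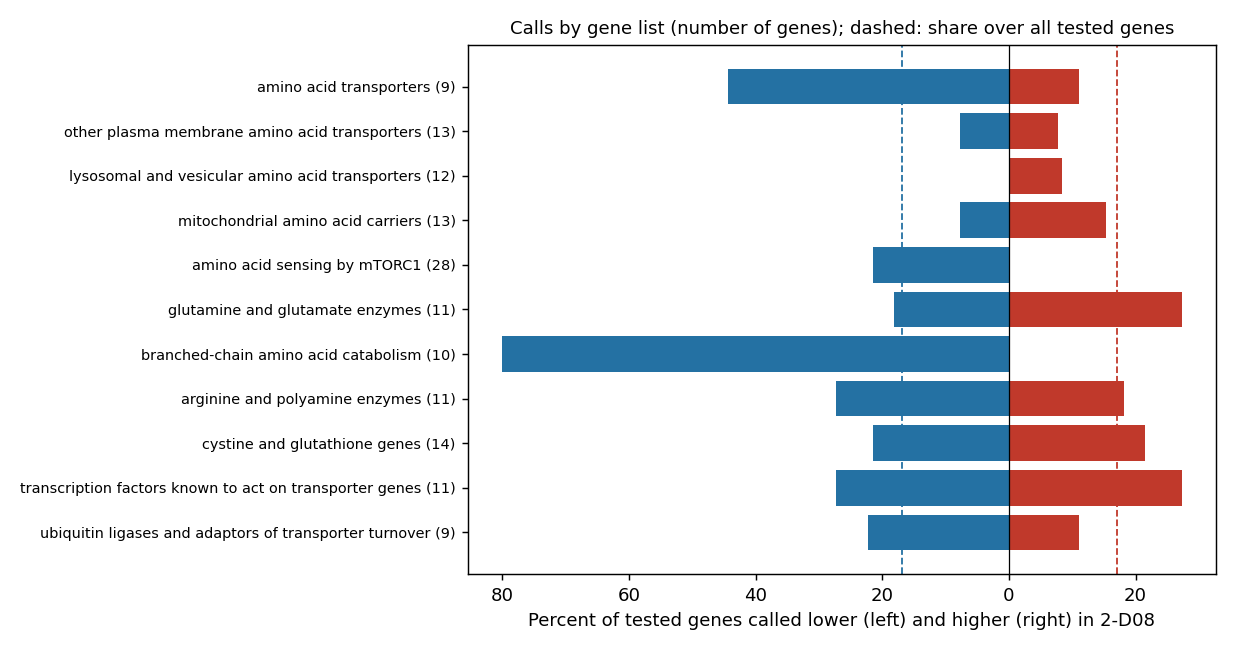
Percent of tested genes called lower (left) and higher (right) with 2-D08 in each gene list, with the number of genes in brackets, leaving out genes that passed the low-count filter through 1 group alone, and dashed lines at the shares over all tested genes, 16.9% lower and 17.1% higher. Branched-chain amino acid catabolism has 8 of 10 genes called lower and none called higher.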

How the data were processed

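RNA was sequenced in 4 libraries of SK-LMS-1 cells. The submitters' processing notes list GRCh38, DESeq2, STAR 2.7.8a and cutadapt 3.4. How reads were counted, whether by strand, and on which annotation is not given in the sources used here. Deposited by the authors were whole-number counts per gene, TPM values (listed genes sum to 716934 to 761770 per library), and a table of transformed values on a log2-like scale, used only in an alternative. No column lacked a sample. Total counts were 14796702 and 31300635 in 2-D08 libraries and 29586475 and 16628710 in untreated libraries.

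Counts were filtered with filterByExpr (minimum count 10, 12906 genes left), scaled with TMM factors and compared with edgeR 4.0.16 (quasi-likelihood, robust, two-sided) in R 4.3.3, with Benjamini-Hochberg adjustment over all tested genes and a threshold of 0.05. Standard errors and 95% intervals were derived from the F statistic. Genes that passed the filter through 1 group alone were set aside from the list counts of transporters. The step was tested on simulated counts. Intervals on counts cover counting error only. Alternatives used RLE factors, library size only, other filters, DESeq2 1.42.0, limma 3.58.1 (voom, or log2 of TPM with a pseudocount of 1 or 0.1), a replicate block, each library left out, halved counts in the mostly even libraries and thinned counts; the fit on transformed values was added after seeing the data. The members and lists were chosen with earlier results of these data known. Named genes were all members, all tested factors, and up to 3 genes with the smallest p from each other list with a mean of at least 1 CPM. A few others were named after their values were seen. Results for a few listed genes are left out. Gene positions are from GENCODE release 29 and sequences from RefSeq. Protein comparisons are not analysed here.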

Additional observations from a re-analysis of the deposited data

How the results depend on the processing

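With 2 libraries a group, leaving out a library makes the remaining one stand for its group, assumed to vary like the other pair. With SLC1A3 set aside, 4 of the 5 transporters called kept their side of the threshold in every alternative and SLC3A2 did not, and no member changed sign. The replicate block kept the calls of the 5 transporters and added SLC7A1, SLC1A5 and SLC38A1, each called lower. Among the other named genes the replicate block added MYC (lower, edgeR BH-adjusted p = 0.0124), SLC6A6 (higher, 0.00721) and SLC17A9 (higher, 0.00145), and no named gene lost its call under it. The labels do not say that replicate numbers pair the libraries; the departures of replicates 1 from the mean of their group had a correlation of 0.26 across 12906 genes, and the replicate block gave 6239 changed genes against 4376 without it. Limma on log2(TPM + 1) and log2(TPM + 0.1) gave 1598 and 1608 changed genes; the cause was not tested. Leaving out each library gave 1866 to 6077 changed genes, 1866 without untreated replicate 1 and 2695 without untreated replicate 2. Halving the mostly even libraries kept the calls of the 5 transporters. SLC38A1 was also called lower without 2-D08 replicate 2 (log2 fold change -0.30). Among genes not called, thinned counts turned the sign of CEBPG (0.028) and NFE2L2 (0.0094). Over the fits without a library, CEBPB ran from -0.028 to 0.43, CEBPG ran from -0.051 to 0.025, NFE2L2 ran from -0.12 to 0.080 and BAP1 ran from -0.046 to 0.060. The fit on transformed values, chosen after seeing the data, kept the calls of the 5 transporters and added none among the other members, SLC1A3 set aside.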

Other observations

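The number of counts per unit of TPM, relative to the median gene of the same library, reflects the transcript length behind a gene's TPM. For 9 transporters it stayed nearly constant across the 4 libraries, with the highest value at most 1.14 times the lowest (SLC3A2, at 0.568 and 0.513 in 2-D08 libraries and 0.498 and 0.515 in untreated libraries). For SLC1A3 it was 0.467 and 0.24 in 2-D08 libraries and 2.36 in untreated replicate 2, where the gene had 2 counts; untreated replicate 1 gave no value. SLC1A3 has 3 annotated promoter windows. Its TPM difference (1.41 and 1.69 TPM in 2-D08 libraries, 0 and 0.03 TPM in untreated libraries) therefore rests on both its counts and the length the authors' TPM assigned to it.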
